A study of Mus musculus with 4 samples.

Results

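The genes described here are 10 mouse genes of DNA replication, Mcm2, Mcm3, Mcm4, Mcm5, Mcm6, Mcm7, Mcm10, Ccne1, Rrm2 and Pcna, out of 17543 genes listed in the transcript tables of 4 livers. They were chosen by gene symbol, with earlier results of these data known, and matched to the tables by Entrez number. All 10 were listed, and all 10 had enough reads to be tested. The livers came from C57BL/6 mice: 2 were wild type and 2 were Ezh2(K307R/K307R), which carry K307R on each allele of Ezh2, the gene of the catalytic subunit of the Polycomb complex that methylates histone H3. The labels give no sex, age, litter or hour of collection, and do not say how the mutation was made. Nor do they state that replicates were separate animals, and the p-values cover only the spread seen among these 4 livers, which may be technical. The series asks how gene expression in the liver differs in the mutant, and the comparison below asks it of the replication genes.

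Before a cell copies its DNA, the proteins Mcm2 to Mcm7 are loaded onto origins as a ring, which then becomes the motor of the replicative helicase. Mcm10 takes part in switching that helicase on, Ccne1 encodes cyclin E1, which with the kinase Cdk2 drives entry into S phase, Rrm2 encodes the small subunit of ribonucleotide reductase, the enzyme that makes deoxynucleotides, and Pcna is the sliding clamp that holds polymerases on DNA. Most of these genes are known targets of E2F transcription factors. Hepatocytes of an undisturbed adult liver are mostly quiescent, so transcripts of these genes are usually scarce there.

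The upstream sequences of the 4 genes whose levels passed the test are printed first, because E2F and NF-Y sites are the elements best known in promoters of this class. They are the bases before the RefSeq start (GRCm38.p6, the same assembly as mm10), 5′ to 3′ on the gene's own strand, without any base at or after a start that GENCODE M21 annotates, which left out 44 bases for Ccne1 and 13 for Rrm2. Capitals mark matches to the E2F motif or to the NF-Y motif CCAAT on either strand. The Mcm6 stretch is chr1:128359706-128359955 (minus strand), the Mcm10 stretch chr2:5012792-5013041 (minus), the Ccne1 stretch chr7:38107535-38107740 (minus) and the Rrm2 stretch chr12:24708004-24708240 (plus).
Mcm6: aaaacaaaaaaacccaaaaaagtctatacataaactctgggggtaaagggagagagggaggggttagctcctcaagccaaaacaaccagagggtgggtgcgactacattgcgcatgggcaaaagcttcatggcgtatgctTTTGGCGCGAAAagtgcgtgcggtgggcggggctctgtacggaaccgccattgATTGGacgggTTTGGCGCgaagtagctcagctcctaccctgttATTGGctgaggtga
Mcm10: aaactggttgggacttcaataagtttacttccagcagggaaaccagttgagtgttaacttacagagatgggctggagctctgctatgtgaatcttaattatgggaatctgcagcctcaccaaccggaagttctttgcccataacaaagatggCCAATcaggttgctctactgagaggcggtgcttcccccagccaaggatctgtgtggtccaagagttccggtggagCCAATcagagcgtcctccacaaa
Ccne1: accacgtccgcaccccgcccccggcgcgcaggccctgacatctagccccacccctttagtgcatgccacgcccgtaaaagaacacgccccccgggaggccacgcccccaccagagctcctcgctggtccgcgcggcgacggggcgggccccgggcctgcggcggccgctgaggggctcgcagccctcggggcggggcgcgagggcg
Rrm2: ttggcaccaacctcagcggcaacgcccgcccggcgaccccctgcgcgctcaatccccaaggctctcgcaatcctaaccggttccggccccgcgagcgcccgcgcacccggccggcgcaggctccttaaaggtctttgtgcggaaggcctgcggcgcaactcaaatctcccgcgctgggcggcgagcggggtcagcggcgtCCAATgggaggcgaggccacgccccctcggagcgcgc

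The E2F motif was searched as TTTCCCGC, TTTCGCGC, TTTGCCGC and TTTGGCGC on both strands, in the window from 250 bases before to 50 bases after each start. Matches to it were found for 4 of the 9 genes with such a window in the table, Mcm3, Mcm5, Mcm6 and Mcm7, and 2.26% of all 32851 promoter windows hold one. Mcm6 had 3 matches, of which the first, starting at -110 from the gene's start, overlaps the second, on the other strand at -106, in a single run of bases, and the third starts at -47. Mcm5 had an overlapping pair at -153 and -149, and Mcm3 had matches only after its start, at 20 and 39. Mcm7 had 1 match at -165 and 1 at 17 in the first of its 2 windows. The starts used for Mcm5 and Mcm7 lie inside the gene extents given below, so the Mcm7 match at -165 is within that extent. Matches to CCAAT were found for 8 of the 9, against 37.4% of windows, Ccne1 being the exception, and the cell cycle element TTTGAA was found for Mcm2 alone, against 17.9% of windows. No E2F match was found for Mcm2, Mcm10, Ccne1, Rrm2 and Pcna. Whether such matches go with the levels given below was not tested. Only these exact letters were searched, so sites with other letters would be missed. These matches are letters in a window and do not show binding.

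The 4 tables held between 18602928 and 20044832 estimated reads per liver. In the fit over all 12837 genes tested, 189 were lower and 178 higher in the mutants (124 and 188 with total-count scaling). Livers also differed in ways the genotype label does not name. Sex-chromosome transcripts separated the groups: Xist, the RNA of the inactive X chromosome, was at 0.347 and 0.284 CPM (counts per 1000000 reads of the scaled library) in wild-type liver and 327 and 573 in the mutants, and the Y-linked Ddx3y was at 67.6 and 52.4 CPM against 0 reads in both mutants. Genotype and sex-chromosome pattern cannot be told apart here. The clock gene Arntl was at 1.10 and 1.18 CPM against 12.3 and 23.7, and Per2 at 45.02 and 45.54 against 14.3 and 8.80. Their part in the values below was not tested. Ezh2 itself was at 3.36 and 3.93 CPM in wild-type liver and 3.45 and 2.56 in the mutants (log2 ratio of mutant to wild type -0.28, edgeR adjusted p = 0.737), and gene counts do not show the mutated base. Wild-type replicate 2 stood apart in proliferation transcripts: all 13 tested genes of G2 phase and mitosis were higher in it than in wild-type replicate 1, with a median ratio of 4.91, and Mki67, a marker of cycling cells, was at 1.56 and 8.05 CPM in the wild-type livers against 1.91 and 2.30 in the mutants. In the mutants, too, all 13 were higher in replicate 2 than in replicate 1. The log2 ratio of each replication gene is also given without wild-type replicate 2.

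Of the 10 replication genes, 4 fell in the mutant livers (Mcm6, Mcm10, Ccne1 and Rrm2) and 0 rose, with calls made in edgeR at a Benjamini-Hochberg adjusted p under 0.05 over all genes. The background was 1.47% of genes lower and 1.39% higher. DESeq2 called 6 lower, Mcm2 and Mcm5 besides those 4, and 0 higher, against 2.83% and 2.82% of its genes. At an unadjusted p under 0.05 in edgeR, 8 were lower and 0 higher, against 8.31% and 8.5% of all genes. The same 4 passed without wild-type replicate 2, where 2.32% of genes were lower, with edgeR adjusted p = 0.00260 for Mcm6, 0.00104 for Mcm10, 8.49e-04 for Ccne1 and 0.0362 for Rrm2. Both mutant livers lay below both wild-type livers for 8 of the 10, against 23.4% of all genes tested, and Mcm7 and Pcna were the exceptions. All 10 estimates lay below 0, as did 48.9% of all genes, but that of Mcm7 was 0.36 without wild-type replicate 2, 0.10 without mutant replicate 2, 0.00 with total-count scaling and 0.05 to 0.07 on FPKM. The median log2 ratio of the 10 was -1.64, against 0.01 over all genes. In whole tissue, fewer cells of a type and less RNA per cell cannot be told apart.

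**Figure D1:**
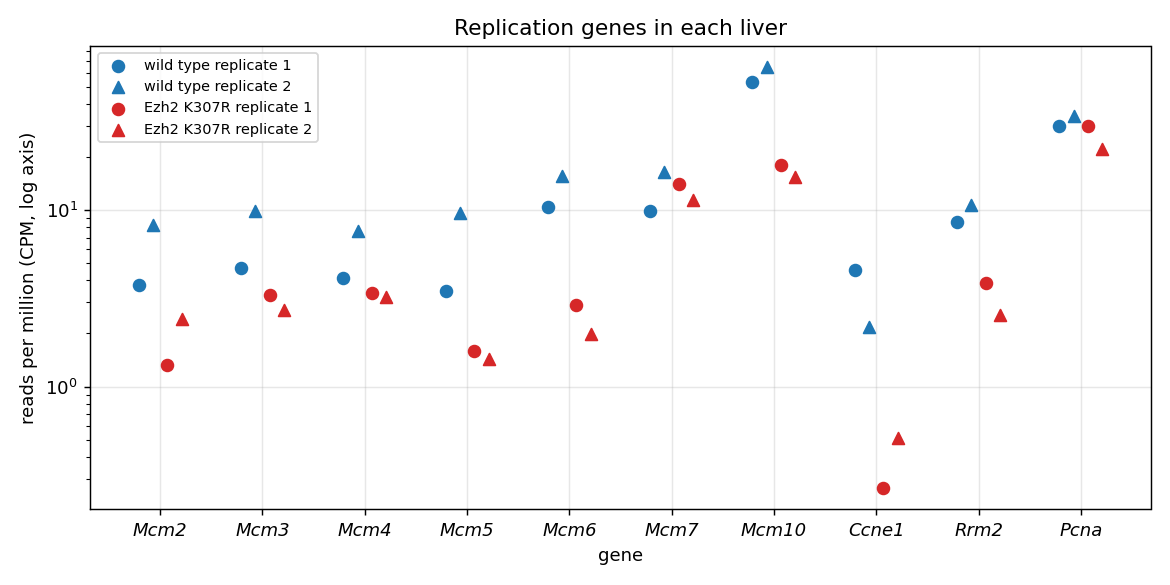
Level of each replication gene (CPM, log axis) in the 4 livers, 1 point per liver, with wild type in blue and Ezh2 K307R in red, circles for replicate 1 and triangles for replicate 2. Red points lie below blue ones for 8 genes and overlap them for Mcm7 and Pcna.

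Mcm6 (Entrez gene 17219, chromosome 1 from 128331575 to 128359705) was the only subunit of the helicase ring that passed the test with all 4 livers. It had 179 and 329 reads in wild-type liver and 55 and 39 in the mutants, that is, 10.4 and 15.6 CPM against 2.92 and 1.99 CPM. The lower wild-type liver was above the higher mutant liver by more than either genotype's own spread (13.0 ± 3.69 against 2.46 ± 0.653 CPM, mean ± SD, n = 2 each). Its log2 ratio (mutant over wild type) was -2.40 (SE 0.32, edgeR adjusted p = 0.0117), a level 5.28-fold lower with a 95% interval of 3.15 to 8.85. The call was kept whichever liver was left out, at log2 ratios of -2.70 to -2.08, the last of these without wild-type replicate 2. On log2(FPKM + 1) with limma it missed the threshold (limma adjusted p = 0.0566, and 0.0508 on log2(FPKM + 0.1)). Without a filter, limma on log2(FPKM + 1) gave an adjusted p of 0.232.

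The other ring subunits did not pass the test over all genes, and their values spread widely between the wild-type livers. Mcm5 (chromosome 8 from 75109468 to 75128439) was at 3.47 and 9.66 CPM in wild-type liver and 1.59 and 1.43 in the mutants, with a log2 ratio of -2.12 (SE 0.50, edgeR adjusted p = 0.0732). The mutant livers nearly coincided, while wild-type replicate 2 was 2.78-fold above replicate 1. Mcm2 (chromosome 6 from 88883474 to 88898780), whose protein also binds histones H3 and H4, was at 3.76 and 8.28 CPM against 1.33 and 2.40, with a log2 ratio of -1.69 (SE 0.47, edgeR adjusted p = 0.116). Mcm3 (chromosome 1 from 20802966 to 20820312) was at 4.69 and 9.89 CPM against 3.29 and 2.71, with a log2 ratio of -1.29 (SE 0.39, edgeR adjusted p = 0.147). Mcm4, one of the subunits of the ring's catalytic core (chromosome 16 from 15623897 to 15637400), was at 4.11 and 7.67 CPM against 3.40 and 3.22, with a log2 ratio of -0.84 (SE 0.36, edgeR adjusted p = 0.295). In these 4 genes the mutant levels lay below both wild-type levels, with a narrow gap to wild-type replicate 1 for Mcm4. Without wild-type replicate 2 their log2 ratios were -1.20 for Mcm5, -1.01 for Mcm2, -0.65 for Mcm3 and -0.32 for Mcm4 (edgeR adjusted p from 0.169 to 0.772). When wild-type replicate 1 was omitted they were -2.67, -2.14, -1.72 and -1.21, and Mcm5, Mcm2 and Mcm3 then passed, against 2.95% of all genes lower in that fit (edgeR adjusted p = 2.85e-04, 0.00405 and 0.00615) while Mcm4 did not (0.0516). The size of the difference for these subunits thus depended on which wild-type liver was used.

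Mcm7 (chromosome 5 from 138164583 to 138172111), a core subunit of the same ring, was at 9.95 and 16.4 CPM in wild-type liver and 14.1 and 11.5 in the mutants. The mutant livers lay between the wild-type livers. The mutant to wild-type log2 ratio was -0.05 (SE 0.28, edgeR adjusted p = 0.958), with a 95% interval of -0.68 to 0.59 that leaves room for a change in either direction, and without wild-type replicate 2 the ratio was 0.36 (edgeR adjusted p = 0.638). The interval of Mcm6 ran from -3.15 to -1.66. The Mcm7 gene holds the miRNA genes Mir25, Mir93 and Mir106b, and it overlaps Ap4m1 by 91 bases. Ap4m1 had 64 to 91 reads per liver, and reads in the overlap could belong to either gene, since no source used here gives the strand setting.

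**Figure D2:**
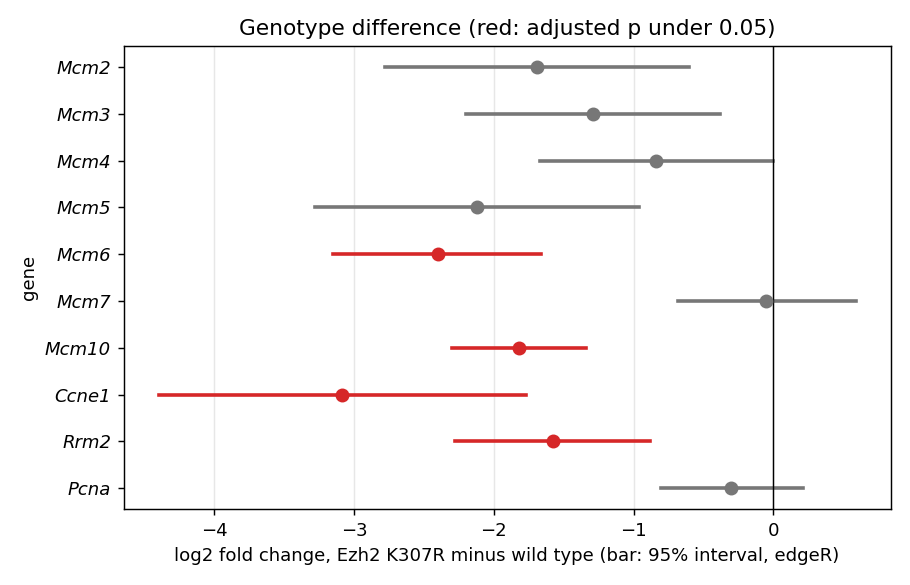
Log2 ratio of each replication gene between Ezh2 K307R and wild type, with its 95% interval from edgeR (2 livers per genotype), and in red the 4 genes with an adjusted p under 0.05. The intervals of Mcm7 (-0.68 to 0.59) and Pcna (-0.80 to 0.21) include 0.

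Relative to Mcm7 in the same liver, which needs no scaling between livers, the other subunits were scarcer in the mutants. Levels are compared per length here, as the authors' FPKM (fragments scaled to transcript length and library size). The FPKM of Mcm6 was 0.819 and 0.752 of that of Mcm7 in wild-type liver and 0.159 and 0.131 in the mutants. For Mcm5 the ratio was 0.243 and 0.411 against 0.0793 and 0.0867, for Mcm2 0.268 and 0.357 against 0.0658 and 0.147, for Mcm3 0.389 and 0.499 against 0.194 and 0.196, and for Mcm4 0.273 and 0.311 against 0.160 and 0.188. All 5 ratios separated the genotypes without overlap, as did downward 11.6% of all genes tested when divided by Mcm7. Mcm7 was taken as the reference with its values known, so these ratios restate the difference between Mcm7 and the other subunits and are no separate result. With 2 livers against 2, an exact two-sided permutation test cannot give a p below 0.333, so no test was made. Within each liver, the most abundant ring subunit per length, Mcm7, exceeded the least abundant by 4.11-fold and 3.22-fold in wild-type liver and by 15.2-fold and 11.5-fold in the mutants.

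**Figure D3:**
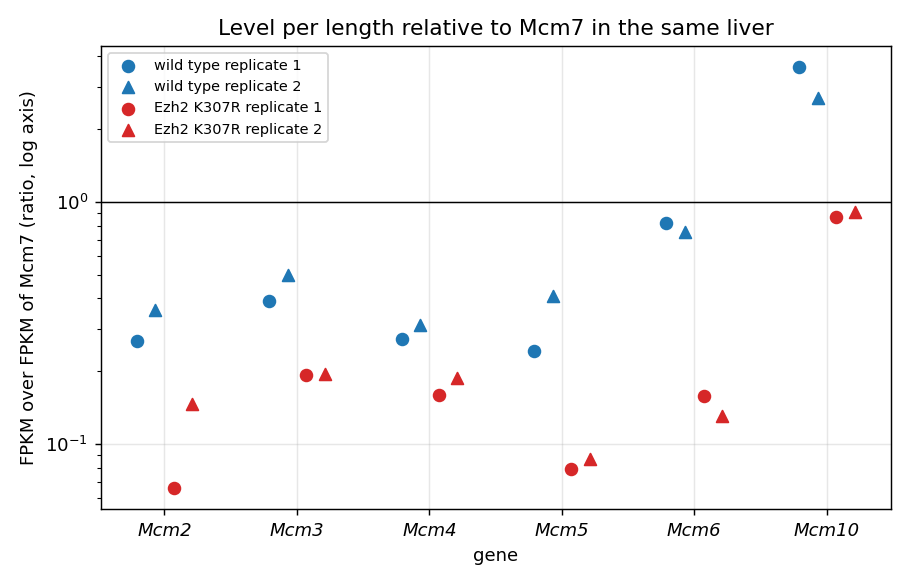
FPKM of the other ring subunits and of Mcm10 divided by the FPKM of Mcm7 in the same liver (log axis), 1 point per liver, with wild type in blue and Ezh2 K307R in red. For all 6 genes both mutant points lie below both wild-type points, and the Mcm10 ratio is 3.62 and 2.69 in wild-type liver and 0.868 and 0.909 in the mutants.

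Mcm10 (Entrez gene 70024, chromosome 2 from 4990724 to 5012791) had the smallest adjusted p of the 10. It had 920 and 1370 reads in wild-type liver and 340 and 302 in the mutants, or 53.2 and 64.9 CPM against 18.0 and 15.4 CPM. Replicates of a genotype lay close together and the genotypes far apart (59.0 ± 8.21 against 16.7 ± 1.83 CPM, mean ± SD, n = 2 each). The mutant to wild-type log2 ratio was -1.82 (SE 0.21, edgeR adjusted p = 0.00646), a level 3.53-fold lower with a 95% interval of 2.53 to 4.92. It was -1.95 to -1.67 with any liver left out, the last without wild-type replicate 2, and the call was kept each time. With limma the call was kept on log2(FPKM + 1) (limma adjusted p = 0.0314) and log2(FPKM + 0.1) (0.029). It was lost on log2(FPKM + 1) without a filter (0.1635). Mcm10 was also far above the ring subunits per length in the wild type, at 13.4 and 19.3 FPKM against 0.90 to 7.17 FPKM for Mcm2 to Mcm7. It came second after Pcna in both wild-type livers. In both mutants it came after Pcna and Mcm7, at 5.15 and 4.51 FPKM against Mcm7 at 5.93 and 4.96 FPKM.

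Ccne1 (chromosome 7 from 38097984 to 38107490) had the greatest fold difference of the 10 and the fewest reads. It had 79 and 46 reads in wild-type liver and 5 and 10 in the mutants, or 4.57 and 2.18 CPM against 0.265 and 0.512 CPM. Unlike the other 9 genes it was higher in wild-type replicate 1 than in replicate 2. The mutant to wild-type log2 ratio was -3.09 (SE 0.57, edgeR adjusted p = 0.0363), a level 8.49-fold lower with a wide 95% interval of 3.40 to 21.2. Omitting wild-type replicate 1 gave -2.46 and omitting wild-type replicate 2 gave -3.53. The call was lost without mutant replicate 1 (-2.70) and without mutant replicate 2 (-3.63). It was also lost in limma-voom (-2.97, limma-voom adjusted p = 0.0633) and with the replicate block (-3.01, edgeR adjusted p = 0.0615). On FPKM it was lost too (limma adjusted p from 0.0918 to 0.229). Of 15 other settings, 8 kept the Ccne1 call. Ccne2, which encodes the second cyclin E and is not among the 10, had 50 and 58 reads against 7 and 16, with a log2 ratio of -2.23 (SE 0.48, edgeR adjusted p = 0.0550).

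Rrm2 (chromosome 12 from 24708254 to 24714146) was at 8.56 and 10.7 CPM in wild-type liver and 3.87 and 2.56 CPM in the mutants, from 148, 226, 73 and 50 reads. Both mutants lay below both wild-type livers. The mutant to wild-type log2 ratio was -1.58 (SE 0.30, edgeR adjusted p = 0.0391), a level 2.997-fold lower with a 95% interval of 1.85 to 4.87. Without wild-type replicate 2 it was -1.42. The call was lost without mutant replicate 2 (-1.31) and with total-count scaling (-1.52, edgeR adjusted p = 0.0729). It was also lost with the replicate block (-1.60, edgeR adjusted p = 0.0587) and on FPKM (limma adjusted p from 0.0909 to 0.276). Of 15 other settings, 9 kept the Rrm2 call. Its partner Rrm1, the large subunit, had a log2 ratio of -0.93 (edgeR adjusted p = 0.118), and Rrm2b, the small subunit induced by p53, one of -0.08 (0.930).

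Pcna (chromosome 2 from 132249286 to 132253180) was the most abundant of the 10 per length in every liver. It was at 21.5 and 28.9 FPKM in wild-type liver and 24.4 and 18.6 FPKM in the mutants, or 30.0 and 34.3 CPM against 30.0 and 22.2 CPM. The genotypes overlapped. The mutant to wild-type log2 ratio was -0.30 (SE 0.22, edgeR adjusted p = 0.551), with a 95% interval of -0.80 to 0.21, and the ratio was -0.20 without wild-type replicate 2 (edgeR adjusted p = 0.807). Against Pcna in the same liver, the FPKM of Rrm2 was 0.162 and 0.177 in wild-type liver and 0.0731 and 0.0652 in the mutants. That of Mcm10 was 0.623 and 0.667 against 0.211 and 0.243. Pcna was taken as the reference with its values known, so these ratios are no separate result. Pcna also acts in DNA repair outside S phase, and it has pseudogene copies that could share its reads. The pseudogene copies searched for were not listed in any liver, which does not show whether reads from them were counted to Pcna.

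**Figure D4:**
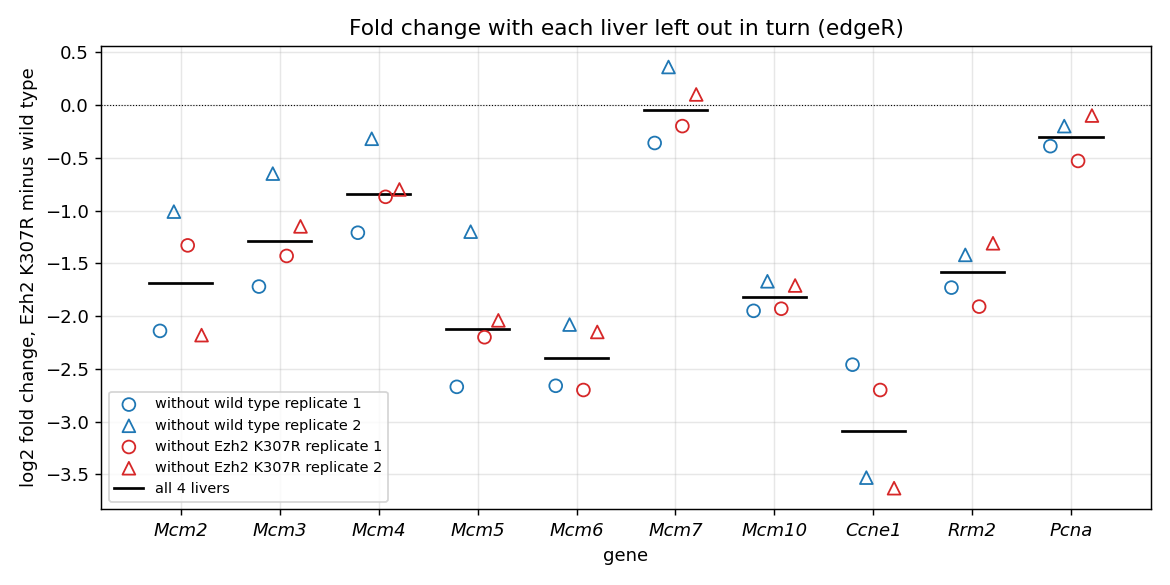
Log2 ratio between Ezh2 K307R and wild type for each replication gene with all 4 livers (black line) and with each liver left out (open symbols, colour and shape giving the liver left out). Mcm6 stays between -2.70 and -2.08 and Mcm10 between -1.95 and -1.67, whereas Mcm5 moves from -2.67 without wild-type replicate 1 to -1.20 without wild-type replicate 2.

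The tables list more than 1 transcript for Mcm5, Mcm6 and Mcm10, and 1 for each of the other 7 genes. For Mcm6 the shorter transcript (2966 bases) took 93.6% and 94.9% of the gene's reads in wild-type liver and 85.5% and 76.9% in the mutants. In reads it went from 168 and 312 to 47.0 and 30.0, while the longer transcript (4431 bases) had 11.4 and 16.6 against 7.98 and 9.0. For Mcm5 the transcripts differ by 24 bases in length. The longer one (3441 bases) had 146 reads in wild-type replicate 2 and 0 in the other 3 livers. The shorter one (3417 bases) had 60.1 and 58.5 reads in wild-type liver and 30.5 and 27.5 in the mutants, so that the extra Mcm5 reads of wild-type replicate 2 were all assigned to the longer one. RSEM divides reads between transcripts by estimation, so the split is less certain than the gene's sum. For Mcm10 the transcript of 3510 bases held at least 93.3% of the reads in every liver.

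The pathway around these genes was followed in 9 lists of 137 other genes, of which 119 could be tested. By edgeR's adjusted p, 1 of the 119 fell and 0 rose, a share of 0.840% that is no higher than the background of 1.47%. At an unadjusted p under 0.05, 25 were lower and 2 higher, against 8.31% and 8.5% of all genes, and DESeq2 called 5 lower and 1 higher, against 2.83% and 2.82%. The same shares are the background of the counts given list by list below. Both mutants lay below both wild-type livers for 55 of the 119, or 46.2%, against 23.4% of all genes, and the median log2 ratio was -0.33, against 0.01. By list, the share lying below ran from 7.7% for G2 and mitosis to 81.8% for helicase activation and the fork. The gene that fell was Nme1, a nucleoside diphosphate kinase, at 75.4 and 68.9 CPM against 33.3 and 33.6 CPM (log2 ratio -1.11, SE 0.18, edgeR adjusted p = 0.0244). Without mutant replicate 1 or 2 its log2 ratio stayed at -1.10 and -1.11, and the call was lost. Its reads could have been divided with its close relative Nme2. Nme2 had 3981 and 3920 reads in wild-type liver and 2913 and 2366 in the mutants, and such a division was not tested.

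Among the 10 genes of origin licensing, the step that loads the ring, 8 were tested and 0 passed in edgeR (2 lower at an unadjusted p under 0.05, 0 in DESeq2), with a median log2 ratio of -0.33. Orc6, a subunit of the origin recognition complex, had a log2 ratio of -0.82 (SE 0.32), and Gmnn, the inhibitor of licensing, one of -0.82 (SE 0.34). Of 16 genes of helicase activation and the fork, 11 were tested and 0 passed in edgeR (3 lower unadjusted, 1 in DESeq2), with a median of -0.44 and 9 of the 11 lower without overlap. Dbf4, the activator of the kinase Cdc7 that phosphorylates the ring, was at 4.22 and 4.07 CPM against 1.38 and 1.53 CPM (log2 ratio -1.50, SE 0.34, edgeR adjusted p = 0.0612). Its replicates lay close in both genotypes. Wdhd1, which links the helicase to the polymerase that starts each strand, had a log2 ratio of -1.44 (SE 0.41, edgeR adjusted p = 0.119).

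The 12 polymerase and primase genes had 0 calls in edgeR (2 lower unadjusted, 0 in DESeq2) and a median log2 ratio of -0.21, with Pole, the catalytic subunit of polymerase epsilon, at -1.31 (SE 0.42) and the primase subunit Prim2 at -0.95 (SE 0.33). Of 19 clamp loading and lagging strand genes, 18 were tested and 0 passed in edgeR (4 lower unadjusted, 1 in DESeq2), with a median of -0.15. The ribonuclease H2 subunits Rnaseh2b (-1.13, SE 0.25, edgeR adjusted p = 0.0596) and Rnaseh2a (-0.83, SE 0.20, 0.0732) were nearest to the threshold. The 11 genes of deoxynucleotide supply had 1 call in edgeR, the fall of Nme1 (3 lower unadjusted, 1 in DESeq2). Their median was -0.31, and 7 of the 11 were lower without overlap. The 4 other genes that carry the Mcm name had 0 calls in edgeR (0 unadjusted, 0 in DESeq2) and a median of 0.25, with Mcm8, which acts in recombination, at 0.43 (SE 0.41) and Mcm3ap, an mRNA export factor, at 0.37 (SE 0.23).

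The 34 genes of G1/S control, 32 of them tested, had 0 calls in edgeR (5 lower and 2 higher unadjusted, 1 lower and 1 higher in DESeq2) and a median log2 ratio of -0.26. Rbl1, the pocket protein p107, had a log2 ratio of -1.25 (SE 0.39, edgeR adjusted p = 0.154). The 13 S-phase chromatin and repair genes had 10 tested, 0 calls in edgeR (5 lower unadjusted, 1 in DESeq2) and a median of -1.06. Chaf1a, the histone chaperone subunit that binds Pcna, was at -1.87 (SE 0.46, edgeR adjusted p = 0.0808) and Brca1 at -1.45 (SE 0.40, 0.113). The 18 genes of G2 and mitosis had 13 tested, 0 calls in edgeR (1 lower unadjusted, 0 in DESeq2) and a median of -0.88, but lay without overlap below the wild type for 1 of 13 genes, the kinase gene Cdk1 (2.08 and 3.79 CPM against 0.743 and 0.921). Top2a, the topoisomerase of dividing cells, was at 1.62 and 6.01 CPM against 0.743 and 1.99 CPM, so that mutant replicate 2 lay above wild-type replicate 1.

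**Figure D5:**
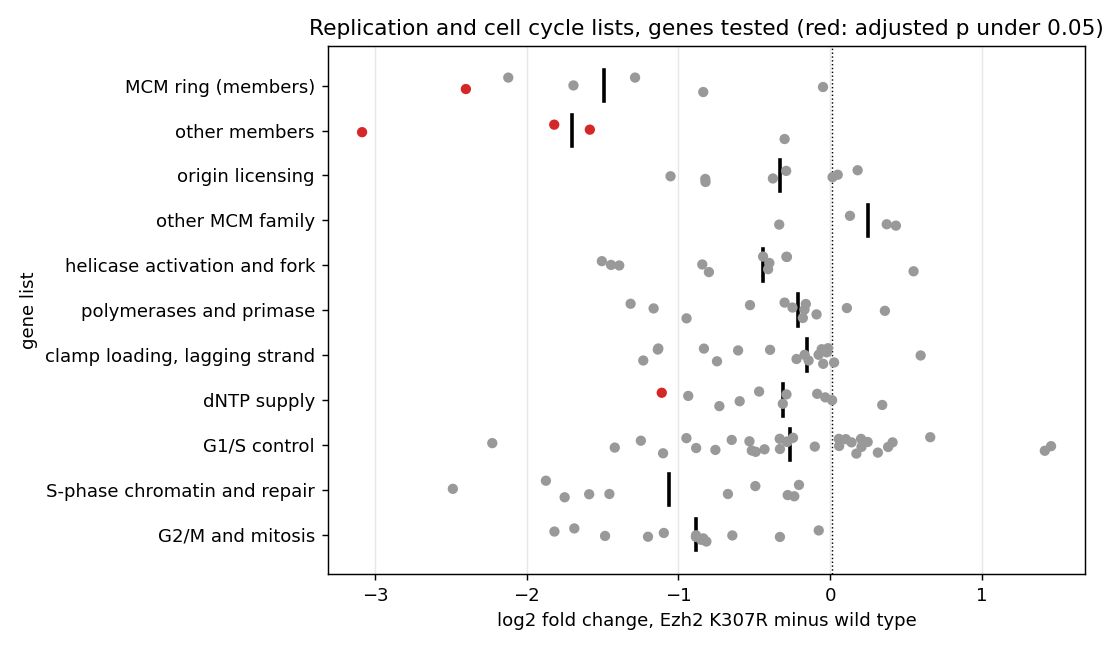
Log2 ratio of the tested genes of each list, 1 point per gene, red where the adjusted p is under 0.05 (edgeR), with a black bar at the list's median and a dotted line at the median of all genes (0.01). The medians of the replication genes described here are -1.49 for the ring and -1.70 for the other 4, and those of the 9 further lists run from -1.06 to 0.25.

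The mean profile of Mcm2 to Mcm7 over the 4 livers, in log2(CPM + 0.5) centred per gene, was 0.13 and 1.04 in wild-type liver and -0.54 and -0.63 in the mutants. Among 11803 other genes with a mean of at least 1 CPM, the 5 nearest to it by Euclidean distance were Cd248 (distance 0.082), Vill (0.130), Fam187b (0.189), Jazf1 (0.210) and Pclaf (0.211), over 4 livers. None of these passed the edgeR test over all genes (adjusted p from 0.0967 to 0.167). All 5 were low, at 0.358 to 5.54 CPM.

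Markers of the liver's cell types were read beside these values, since cycling cells can belong to any of them. Hepatocyte markers summed to 141000 and 135800 CPM in wild-type liver and 126000 and 128000 in the mutants. Stellate cell markers summed to 89.3 and 132 CPM against 284 and 223, with 1 of 6, Dcn, higher (edgeR adjusted p = 0.0348). Kupffer cell markers summed to 124.5 and 151.6 CPM against 255.7 and 163.6, and endothelial markers to 58.4 and 83.8 against 90.35 and 99.2. Of 5 tested erythroid markers 1, Alas2, the first enzyme of haem synthesis in red cell precursors, fell (108 and 62.3 CPM against 16.8 and 27.6, edgeR adjusted p = 0.0276), while the summed erythroid level was 357 and 432 CPM against 504 and 567. T and NK cell markers summed to 2.02 to 3.29 CPM, B cell markers to 3.27 to 14.3 and neutrophil markers to 9.70 to 15.8, with the granule gene Elane at 0 reads in 3 livers and Retnlg at 0 in mutant replicate 2. Cholangiocyte markers summed to 70.8 and 54.8 CPM against 32.5 and 60.4. Dcn and Alas2 were the only markers called in edgeR, and no marker sum other than the hepatocyte sum was lower in both mutants than in both wild-type livers, and the part of cell composition in the replication genes was not tested.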

How the data were processed

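RNA sequencing of 4 mouse livers was deposited as 1 table of RefSeq transcripts per liver, not pooled. The deposited expected counts are estimated reads per transcript, not normalized, and the FPKM, also as deposited, are normalised to length and depth, per the file headers. The submitters' processing notes name RSEM, HISAT, Bowtie2 and mm10, but versions, roles and strand setting were not found in any source used here. Expected counts were summed per gene and rounded, with 0 for any transcript a liver's table lacks. Symbols came from RefSeq's GRCm38.p6 gene table, which named 17502 of 17543 genes. The other 41 (at most 0.0428% of a liver's counts) were kept in library sizes and tests. Replicates of a genotype did not agree within sampling noise (chi-square per gene of 88.5 between wild-type livers and 48.3 between mutants).

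Genotypes were compared with edgeR 4.0.16 in R 4.3.3 (quasi-likelihood test, TMM factors, filterByExpr, genotype as the only term). The Benjamini-Hochberg adjustment covered 12837 genes, with a threshold of 0.05. SEs are the absolute log2 ratio divided by the square root of F. CPM use the TMM library sizes. The scripts were tested on simulated data. Alternatives were total-count, upper-quartile and RLE scaling, DESeq2 1.42.0, limma-voom and limma with trend on FPKM (limma 3.58.1), other filters, a block for replicate number, and fits that omit 1 liver, where a lone liver is assumed to vary like those of the other genotype. Figures were drawn with matplotlib 3.10.9.

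Members and lists were chosen with earlier results of these data known. Beside the 10 members, the text names Ezh2, Xist, Ddx3y, Arntl, Per2, from each list the genes that passed (at most 6) or else the 2 with the smallest p, and the 5 genes most like the ring. Ap4m1, Rrm1, Rrm2b, Nme2, Mki67, Dcn, Alas2, Elane, Retnlg and the genes of the other observations fall outside this rule and were named after their values were seen.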

Additional observations from a re-analysis of the deposited data

How the results depend on the processing

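Of 150 values of the 10 replication genes under other settings, 119 kept their direction and their side of the threshold, 17 kept the direction and lost the call, 8 gained a call and 6, all of Mcm7, changed sign. The number of the 10 that fell, 4 in the fit reported, was 7 with no filter beyond 1 read (2.4% of all genes lower). With limma it was 1 on log2(FPKM + 1) (0.65%), 1 on log2(FPKM + 0.1) (0.66%) and 0 on log2(FPKM + 1) without a filter. In that last setting 4 of the 10 were lower at an unadjusted limma p under 0.05, against 833 of 17543 genes. The number that fell was 3 to 6 with the other scalings, limma-voom, DESeq2 and the filter at 1 CPM, against 0.966% to 2.83% of all genes lower. With the replicate block it was 2, against 1.41% of all genes (Ccne1 at -3.01 and Rrm2 at -1.60 had adjusted p = 0.0615 and 0.0587 in edgeR, with log2 ratios close to those reported). The labels do not say what a shared number stands for. Over all genes the deviations of same-numbered livers from their genotype means correlated at -0.0027, but all 13 tested genes of G2 and mitosis were higher in replicate 2 in both genotypes. Mcm7, at -0.05, was at 0.00 with total counts, 0.05, 0.07 and 0.05 in the FPKM settings in that order, and -0.36 to 0.36 with a liver left out. Over all genes, 178 higher and 189 lower became 369 and 370 in DESeq2, 410 and 419 with no filter, 94 and 69 on log2(FPKM + 1), 91 and 70 on log2(FPKM + 0.1), 0 and 0 on log2(FPKM + 1) without a filter (limma, 1372 and 833 at an unadjusted p under 0.05), 188 and 124 with total counts, and 117 to 327 and 94 to 393 with a liver left out. The cause was not tested. Depth limits Ccne1 most, at 5 and 10 reads in the mutants.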

Other observations

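The following genes were chosen after their values were seen. E2f8, an E2F factor that represses replication genes, was at 5.38 and 5.35 CPM in the wild type and 7.06 and 22.4 CPM in the mutants. DESeq2 called it higher (log2 ratio 1.44, adjusted p = 0.0330), edgeR did not (1.46, adjusted p = 0.174), and its edgeR log2 ratio was 0.40 without mutant replicate 2 (adjusted p = 0.767) and 2.06 without mutant replicate 1 (adjusted p = 0.00583). Cdkn1a, the inhibitor of cyclin E kinase also known as p21, was higher in replicate 2 of both genotypes, at 2.78 and 13.9 CPM in the wild type and 2.92 and 17.95 CPM in the mutants (log2 ratio 0.32, edgeR adjusted p = 0.892).

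Several licensing and repair genes had too few reads to be tested. Orc1, the largest subunit of the origin recognition complex, had 4 and 5 reads in wild-type liver against 0 in both mutants, the nuclease gene Exo1 had 5 and 10 against 0 and 0, and the ring loader Cdc6 had 6 and 29 against 0 and 3. A count of 0 allows up to 3 reads, for counting error only, so that these differences were small in reads. Orc1, Exo1 and Cdc6 were picked, with their values known, from 18 untested genes of the lists. Ticrr also had 0 reads in mutant replicate 1 (1 and 7 reads against 0 and 1). Others had reads in both mutants, such as Mybl2 (6 and 12 against 7 and 6) and Gins2 (8 and 29 against 7 and 8).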
